A study of Drosophila melanogaster with 31 samples.

Results

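Embryos that develop without maternal grh were followed from the blastoderm (stage 5) to the onset of gastrulation (stage 6) by ATAC-seq, which maps open chromatin by where the Tn5 transposase can insert. Each stage has 1 peak list, made by pooling 3 single grhM- embryos, so 6 of the 31 embryo samples of the series, and 2 of its 12 conditions, are described here. Peaks with the same coordinates were joined, and joined peaks of the stages that overlapped by at least 1 bp formed a locus. This gave 48399 loci, of which 23498 were listed at both stages, 11001 at stage 5 alone and 13900 at stage 6 alone. A locus was compared when its strongest summit held at least 40 fragments at the higher stage, on the stage 6 scale, and 18075 loci met this. A locus opened when its summit was at least 2-fold higher at stage 6 and closed when it was at least 2-fold lower. Because each stage is a single pooled list there is no spread between embryos and no test, and the intervals given cover counting error only.

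The grhM- embryos came from mothers whose germline carried mitotic clones of the null allele grhB37, made by heat shock-induced FLP at FRT sites, and were recognized by the absence of GFP fluorescence. They lack the mRNA that the mother supplies, but grh can still be expressed from the zygotic genome where the father supplied a working copy. Their siblings from the same collections (grhM+) are the control. A further experiment of the series has single embryos without maternal and zygotic grh (grhM-Z-), also screened by PCR, with their siblings (grhM+Z+). The sex of the grhM- embryos was not given.

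Grainy head (Grh) is a transcription factor of epithelia that can open chromatin at its sites in some tissues. At the blastoderm the zygotic genome is activated under the factor Zelda (Zld), which binds CAGGTAG-like sites and is needed for open chromatin at many early enhancers and promoters. During stage 5 membranes enclose the nuclei (cellularization), and gap, pair-rule and dorsoventral genes lay out the body plan. At gastrulation the mesoderm invaginates and segment polarity, Hox and neural genes take over the pattern.

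Sequences from 10 loci are shown: those that closed hold the string that differed most in share between opened and closed loci, and those that opened hold a string for D or for Grh, the factor these embryos lack from the mother. Each runs 5′ to 3′ on the plus strand, 50 bases to either side of the strongest summit, from the RefSeq BDGP Release 6 sequence (dm6). In the loci that closed, capitals mark the Zld string CAGGTAG or its reverse strand CTACCTG.
zen distal, chr3R:6755540-6755640: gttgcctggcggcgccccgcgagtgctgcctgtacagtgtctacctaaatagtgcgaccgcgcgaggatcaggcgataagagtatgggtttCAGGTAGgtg
hb upstream, chr3R:8699136-8699236: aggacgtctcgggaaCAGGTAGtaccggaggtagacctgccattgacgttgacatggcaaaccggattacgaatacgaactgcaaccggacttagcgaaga
wg intron, chr2L:7310380-7310480: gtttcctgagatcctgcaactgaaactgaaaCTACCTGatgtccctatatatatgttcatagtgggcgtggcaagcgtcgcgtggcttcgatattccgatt
tsg promoter, chrX:11988991-11989091: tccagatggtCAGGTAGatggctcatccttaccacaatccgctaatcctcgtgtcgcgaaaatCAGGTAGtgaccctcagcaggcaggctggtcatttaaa
bnk promoter, chr3R:31193218-31193318: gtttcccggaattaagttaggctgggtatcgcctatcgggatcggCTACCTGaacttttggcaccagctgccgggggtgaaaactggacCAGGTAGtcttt
sog intron, chrX:15624931-15625031: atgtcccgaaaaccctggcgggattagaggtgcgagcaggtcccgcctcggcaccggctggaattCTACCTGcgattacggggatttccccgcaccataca

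In the loci that opened, capitals mark the string ACAAAGG, which the Sox factor Dichaete (D) can bind, at hb and trh. At Fer1HCH and Awh they mark a Grh string, AACCGGTT or AACCAGTT, the last being AACTGGTT on the reverse strand.
hb far start site, chr3R:8697942-8698042: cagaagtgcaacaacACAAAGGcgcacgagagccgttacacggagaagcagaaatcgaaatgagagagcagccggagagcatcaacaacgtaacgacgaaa
trh intron, chr3L:374881-374981: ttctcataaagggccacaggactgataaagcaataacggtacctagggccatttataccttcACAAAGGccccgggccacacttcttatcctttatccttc
Fer1HCH distal, chr3R:30383403-30383503: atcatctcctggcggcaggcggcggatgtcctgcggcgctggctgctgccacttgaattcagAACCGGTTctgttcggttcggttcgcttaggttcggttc
Awh promoter, chr3L:3845961-3846061: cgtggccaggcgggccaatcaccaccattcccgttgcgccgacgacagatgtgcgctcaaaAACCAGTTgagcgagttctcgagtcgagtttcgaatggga

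The stage 5 list held 48486 summits in 36026 joined peaks and the stage 6 list 55959 summits in 38029. The deposited lists give fold enrichment and p for each summit, and the number of fragments over a summit (its pileup) was solved from these. The median pileup of a joined peak was 24 at stage 5 and 29 at stage 6, and the median local background 6.42 and 8.16, a ratio of 1.27. Stage 5 values are given below multiplied by 1.29, the median ratio over the 13844 compared loci listed at both stages. Where a stage lists no peak, the value is the upper bound that could have gone unlisted, and a fold against it is a lower bound.

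Of the 18075 loci, 1986 opened (11.0%), 1994 closed (11.0%) and 14095 did neither. Among 8963 promoter loci, whose summit lay within 1000 bp of an annotated start site, 752 opened (8.39%) and 508 closed (5.67%). Among 9112 distal loci 1234 opened (13.5%) and 1486 closed (16.3%). Promoter loci made up 49.6% of all loci, 37.9% of those that opened (exact Clopper-Pearson 95% interval 35.73 to 40.04%) and 25.5% of those that closed (23.6 to 27.5%). Over all levels together, both kinds of change thus lay away from start sites more often than the loci at large, and closing more so than opening. When strongest summits within 150 bp were matched in place of whole peaks, 3508 loci closed and the promoter shares were 46.9% (opened) and 43.7% (closed), so the size of this gap depends on how peaks are matched.

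**Figure D1:**
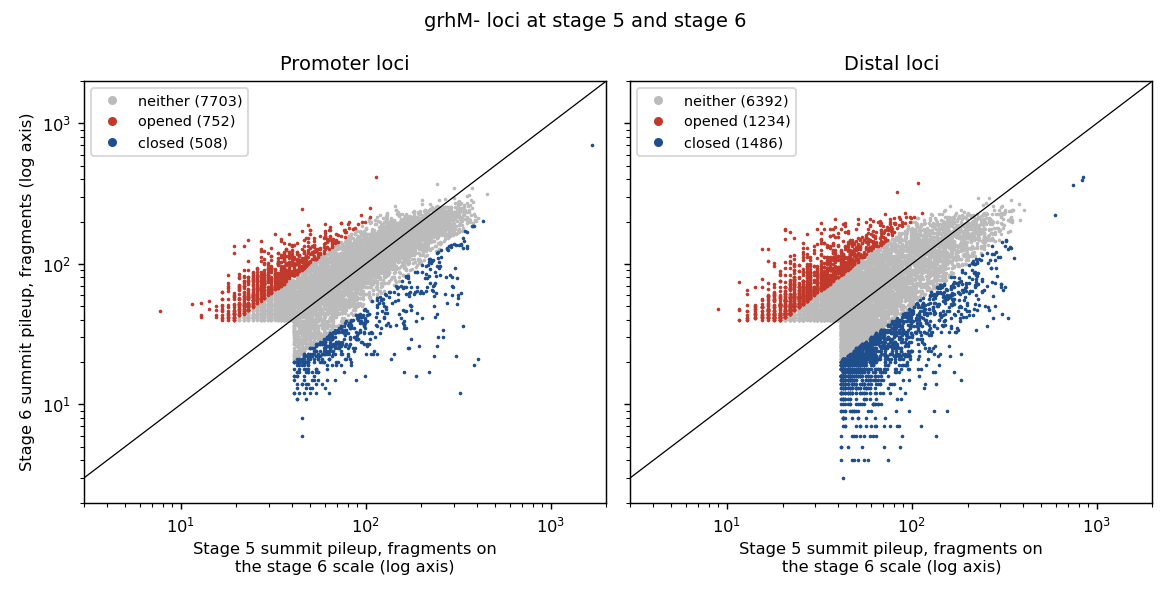
Summit pileup of 18075 loci in grhM- at stage 5 (horizontal, on the stage 6 scale) and stage 6 (vertical), both in fragments on log axes, for promoter loci on the left and distal loci on the right. Red points opened, blue points closed, grey points did neither and the line marks equal pileup; unlisted stages stand at their upper bound, and the 4 points farthest to the right among distal loci belong to the X near its centromere.

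Ranks moved more at distal loci than at promoters. Across loci listed at both stages the rank correlation of pileup was 0.72 over all, 0.80 over promoter loci and 0.50 over distal loci, given as a description of loci that share their libraries. Of the strongest 100 peaks of each stage, 37 loci were shared. Of the strongest 1000, 476 loci were shared, 47.7% of the stage 5 and 47.6% of the stage 6 loci. Promoters made up 74.9% of the strongest 1000 at stage 5 and 83.9% at stage 6.

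Peak width changed with height. Both come from the same pileup, so the width of called loci is not a result apart from the call. Among the 992 opened loci listed at both stages the median width rose from 255 to 475 bp, and 92.1% were wider at stage 6. Among the 1245 closed loci listed at both, it fell from 457 to 325 bp, and 20.7% were wider at stage 6, against 65.2% of all loci. Of the opened loci 994 were listed at stage 6 alone, and of the closed loci 749 at stage 5 alone.

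Closed loci differed in position too. Among distal loci the summit lay in an exon in 21.5% of those that closed, 9.08% of those that opened and 15.6% of those that did neither. Among promoter loci the summit lay within 100 bp of a start site in 59.0% of those that did neither, 46.7% of those that opened and 28.4% of those that closed. The coding genes at closed promoter loci more often had no intron, 65 genes (16.6%, 13.0 to 20.6%), than those at opened loci, 65 of 631 (10.3%, 8.04 to 12.9%), or at other promoter loci, 431 of 5607 (7.69%).

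Of the 15 gene lists, that of cellularization had the lowest median. Of 18 loci nearest to 8 such genes, 10 closed (55.6%, against 11.0% of all loci) and 1 opened, with a median log2 ratio of stage 6 over stage 5 of -1.41, against 0.05 over all loci. At the promoter of slam, which drives membrane growth between the nuclei, the pileup was 325 at stage 5 and 12 at stage 6, a 27.1-fold fall (log2 -4.76, counting interval -5.73 to -3.93). Its peak shrank from 2385 to 121 bp. At bnk, which restrains the contraction of the actin rings, the pileup went from 404 to 21 (log2 -4.27, -4.98 to -3.63) and the peak from 2178 to 122 bp. What was left at stage 6 was a narrow peak at each. On the deposited fold enrichment, which divides by the background nearby, the log2 ratios were smaller, -0.48 at slam and -1.18 at bnk.

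The nullo promoter, of a further gene of the cellular blastoderm, went from 220 to 17 fragments (log2 -3.69). The Z600 promoter went from 269 to 61, with a log2 ratio of -2.14. The Sry-alpha promoter, 292 at stage 5, was not listed at stage 6, where no more than 81 fragments could have been missed. CG14427 closed at its promoter (271 to 80) and at 2 loci in introns. Outside the list, the promoter of dunk, a gene of myosin dynamics in cellularization, closed from 315 to 57 and carried the Zld string. The opened locus of this list was weak, in an intron near nullo, with 56 fragments at stage 6.

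The other promoters with the largest losses were those of lncRNA:CR44504 (384 to 19), Ac78C, an adenylyl cyclase (337 to 36), CG8960 (307 to 22) and CG15876 (329 to 62). The distal losses with the largest differences outside repeats were near CG8117 (332 to 41), cad (306 to 44), koi (318 to 68) and CG42516/Pbp49 (357 to 110). The homeodomain factor caudal (cad) sets posterior fates, and its closed locus lay 1974 bp from a start site. Each of these 8 loci was still listed at stage 6, and all 8 were also lower at stage 6 in grhM+, with log2 ratios between -4.18 and -1.65.

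**Figure D2:**
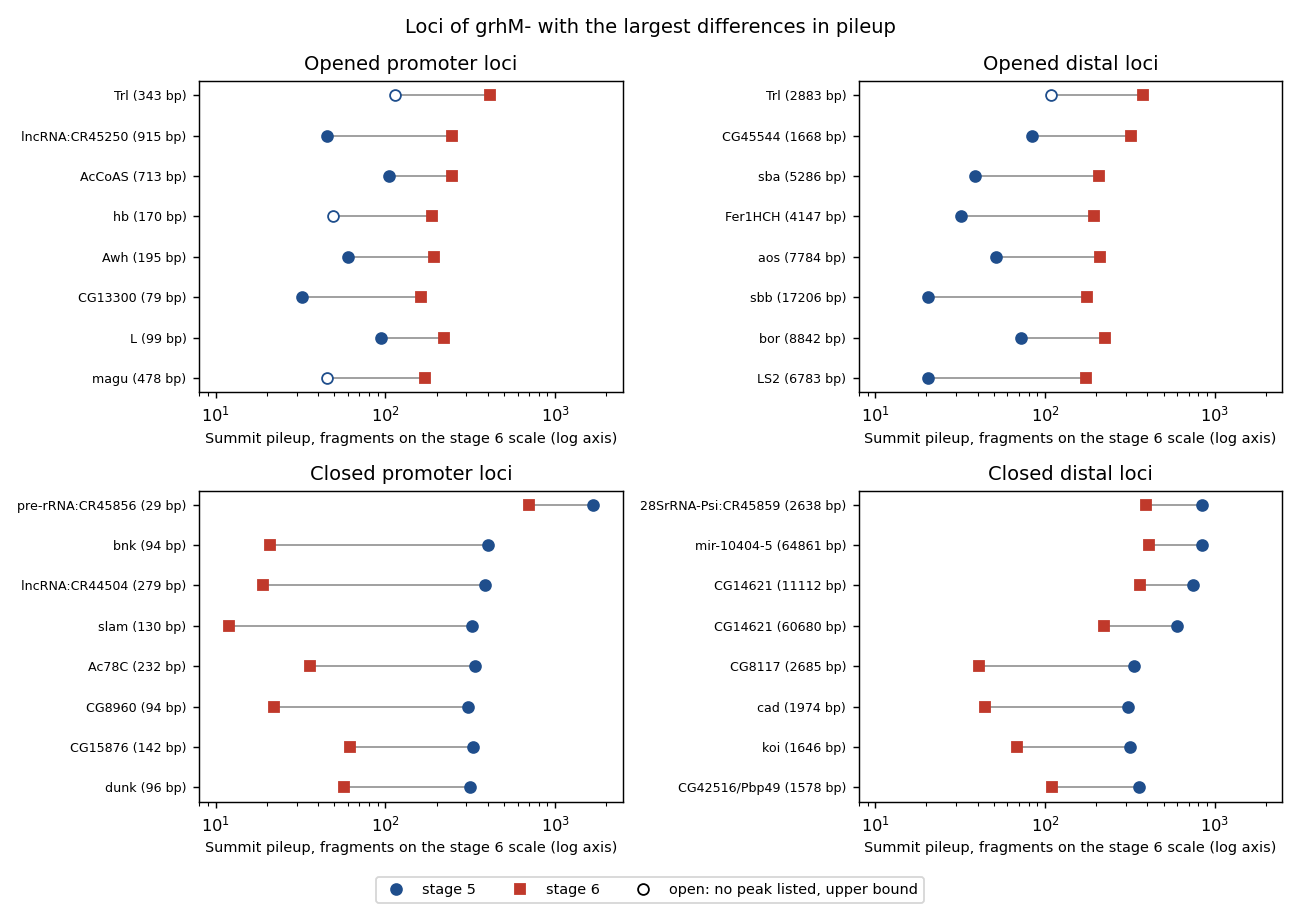
Summit pileup at stage 5 (blue circles) and stage 6 (red squares), in fragments on the stage 6 scale and a log axis, for the 8 loci with the largest difference in each class, named by the nearest start site with its distance in bp. Open symbols are upper bounds where no peak was listed; slam falls from 325 to 12 and bnk from 404 to 21, while the 5 loci of the X near its centromere fall but stay above 200.

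The largest closed values of all were on the X near its centromere, at ribosomal RNA sequence and near CG14621. The promoter locus of pre-rRNA:CR45856 went from 1671 to 703 fragments (log2 -1.25) and ranked first in both lists. The loci near 28SrRNA-Psi:CR45859, mir-10404-5 and CG14621 (the nearer of its pair) fell to between 363 and 412 fragments and held ranks 3, 2 and 4 at both stages. Copies of ribosomal RNA genes are nearly identical. The authors kept uniquely placed fragments, and whether those counted here belong to 1 copy was not tested. In grhM+ the same 4 loci had log2 ratios between -1.47 and -1.04. In the single embryos of the other experiment the pre-rRNA locus was listed in 1 of 5 grhM+Z+ embryos (5 fragments) and 1 of 6 grhM-Z- embryos (4 fragments), too few to read a direction. The cause of this gap from the pooled lists was not tested. Scaled by the median of the X alone, the last 3 loci had log2 ratios of -0.95, -0.89 and -0.89 and were no longer called, and on the deposited fold enrichment the 4 lay between -0.17 and -0.10.

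Genes of the dorsal ectoderm and amnioserosa closed at 14 of 71 loci (19.7%, against 11.0% of all loci) and opened at 3 (4.23%), with a median log2 of -0.26. The homeobox gene zen, which specifies the amnioserosa, closed at its promoter locus (234 to 50) and at a locus 1396 bp away, shown above, which went from 310 fragments to no listed peak, a bound of 65. A further locus, 2061 bp from zen, opened, with 86 fragments at stage 6 and at most 33.4 at stage 5. Its paralog zen2 closed at both of its promoter loci (139 to 53, and 162 to a bound of 37), each with a Zld string.

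Among secreted factors of the same axis, tsg, a BMP-binding protein, closed at its promoter from 188 to 16 (log2 -3.55, -4.40 to -2.81), where 2 Zld strings lie in the stretch shown. The BMP ligand gene scw closed at its promoter (170 to 25) and at 2 loci in introns nearest to its start site. The BMP antagonist sog closed at a locus in an intron from 203 to 62, and at another from 72 to 18. The ligand gene dpp had no closed locus and 1 that opened, from a bound of 59.1 to 148. Of the 14 closed loci of this list 7 carried the Zld string, against 13.8% of all closed loci. Of the 3 opened loci 0 did, against 0.55% of all opened loci, too few to read.

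Sex determination genes, some of which count X chromosomes at the blastoderm, closed at 4 of 15 loci (26.7%) and opened at 1 (6.67%). The share of all loci was 11.0% each, and the median log2 of the list was -0.60. The closed loci include that of run, which is also counted with the pair-rule genes below. The sisA promoter went from 237 to 73 (log2 -1.70). Sxl, the switch gene of the pathway, closed at a promoter locus from 248 to a bound of 103 and in an exon from 122 to 24. The opened locus, in an intron of dsx, had 51 fragments at stage 6.

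Gap genes closed at 12 of 47 loci (25.5%) and opened at 7 (14.9%), against 11.0% of all loci each, with a median log2 of -0.09. Around hunchback (hb), an anterior gap gene, 3 loci closed and 2 opened. The locus at the start site nearer to the coding region went from 240 fragments, in a peak of 2951 bp, to no listed peak (bound 82). Upstream loci 1364 and 3101 bp from the nearest start site closed from 204 to 43 and from 220 to 52, the first with a Zld and the second with a Cad string. Between the first locus and these, the one 170 bp from the far start site opened, from no listed peak (bound 48.9) to 188 (log2 at least 1.94, at least 3.85-fold), with a D string and a Trl string. The start sites of hb therefore exchanged peaks: the widest peak of the stage 5 list was at one, and a peak of 504 bp appeared at the other.

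The peaks of hb were read in the other genotypes as well. In grhM+ the far start site was not listed at stage 5 and had 218 fragments at stage 6. In none of the 3 grhM+Z+ and 3 grhM-Z- embryos at stage 5 was it listed, and at stage 6 it was listed in 2 of 2 grhM+Z+ embryos (74 and 81 fragments) and 3 of 3 grhM-Z- embryos (90 to 99). The 4 pairs of lists thus had the peak at stage 6 only.

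At kni, an abdominal gap gene, 2 distal loci opened (37.3 to 161, and 37.3 to 123), and the promoter (116 to 45) and a further distal locus closed. At Kr, the central gap gene, 2 loci in introns closed, one with a Zld string (221 to 71), and 1 opened. The terminal gap genes gave losses alone: hkb at 1 locus (275 to 59) and tll at 3. Of the 3 tll loci, one 9188 bp away went from 69.4 to 34 in grhM- but had a log2 ratio of 0.05 in grhM+.

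Pair-rule genes closed at 10 of 45 loci (22.2%) and opened at 2 (4.44%), against 11.0% of all loci each, with a median log2 of -0.25. The gene hry (hairy) closed at 3 upstream loci, of which 2 fell from 303 to 72 and from 302 to 72. The locus near run, 19126 bp away, fell from 123 to 25. The ftz promoter went from 285 to 84, and eve closed at a locus in an exon (267 to 94). The pair that opened lay near odd (bound 68.1 to 173) and slp1 (bound 73.3 to 184), and odd had a closed locus on the other side, 280 to 73.

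Columnar genes of the neuroectoderm closed at 8 of 44 loci (18.2%) and opened at 3 (6.82%), against 11.0% of all loci each. The EGF ligand gene vn held 5 of these called loci, with 3 closed (the largest 179 to 34) and 2 opened. The ventral column gene vnd closed at 2 loci in introns (144 to 71 and 170 to 74).

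Segment polarity genes opened at 12 of 66 loci (18.2%, above the 11.0% of all loci) and closed at 7 (10.6%, near it), with a median log2 of 0.26, and none of the called loci was a promoter locus. At wingless (wg), a Wnt ligand, a locus 10467 bp away opened from 30.9 to 176 (log2 2.51, 1.89 to 3.19). Its neighbour opened from a bound of 57.9 to 142. Closer to the gene 2 loci closed, both from 167 to no listed peak, with a Zld string in the one within the intron. The homeobox gene engrailed (en) opened at 4 loci, with 68 to 150 fragments at stage 6, and the Pax gene gsb-n at 2, one from 23.1 to 108 (log2 2.22).

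The locus of wg that opened was listed at both stages in each genotype. In grhM+ it had 25 and 221 fragments. In grhM+Z+ embryos the values were 12 to 18 at stage 5 and 55 and 83 at stage 6, and in grhM-Z- embryos 8 to 19 and 81 to 104. The embryos of the stages did not overlap in either.

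Hox genes opened at 12 of 82 loci (14.6%) and closed at 6 (7.32%), against 11.0% of all loci each, with a median log2 of 0.30. Of these genes pb, a gene of mouthpart identity, had 5 of its 8 loci opened and 0 closed, with the largest gains in introns (37.3 to 141, and 61.7 to 160) and a promoter locus that went from 56.6 to 117. Antp opened at 4 loci and closed at 3, all in introns. Scr had a start site that opened (99 to 200) and another promoter locus that closed, with a Zld string (78.4 to a bound of 39). The Abd-B promoter locus opened from 79.7 to 193.

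Head patterning genes opened at 9 of 44 loci (20.5%) and closed at 5 (11.4%, the share of all loci being 11.0%). The gene ems opened at 3 distal loci (stage 6 fragments 65 to 145), while oc (orthodenticle) held 4 of the 5 closed loci. Genes of trachea and salivary gland opened at 9 of 66 loci (13.6%) and closed at 1 (1.52%). There hth, a homeodomain cofactor of Hox proteins, opened at 3 loci, up to 202 fragments from 66.9, and rib at 1, from 59.1 to 208 (log2 1.81). The single closed locus of this list, near hth, had 50.1 fragments at stage 5.

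Mesoderm genes opened at 5 of 51 loci (9.80%, near the share of all loci) and closed at 2 (3.92%), the latter near the regulators of invagination twi (152 to a bound of 55) and sna (244 to a bound of 65). The opened loci lay at Mef2 (2 loci), htl, stumps and zfh1. Proneural and neuroblast genes opened at 6 of 46 loci and closed at 6, 13.0% each and near the share of all loci, with closed promoters at ac (242 to 120) and sc (318 to 137) and an opened promoter locus at mira (bound 64.3 to 183). SoxB and GATA genes opened at 5 of 37 loci (13.5%) and closed at 4 (10.8%), also near it, and Notch and E(spl) genes at 1 (2.44%) and 2 (4.88%) of 41.

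At D itself, whose neighbourhood the study examined, the promoter peak had 315 fragments at stage 5 and 222 at stage 6 (log2 -0.50), and of 7 loci 2 distal ones closed (220 to a bound of 88, and 68.1 to a bound of 30) and 1 opened. Next to it, a locus 4433 bp from nan closed from 123 to a bound of 31, while the nan promoter (82.3 and 77) and a locus near saturn (170 and 194) did neither. No locus near bcd was compared.

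Genes of genome activation closed at 4 of 37 loci (10.8%, near the share of all loci) and opened at 2 (5.41%), both of which are the narrow Trl loci described below. The zld promoter went from 387 to 186 (log2 -1.06) and a grh promoter locus from 170 to 82 (log2 -1.05), with log2 ratios of -0.26 and -0.42 in grhM+. Both values are close to the 2-fold limit. Transcription of grh was not measured.

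**Figure D3:**
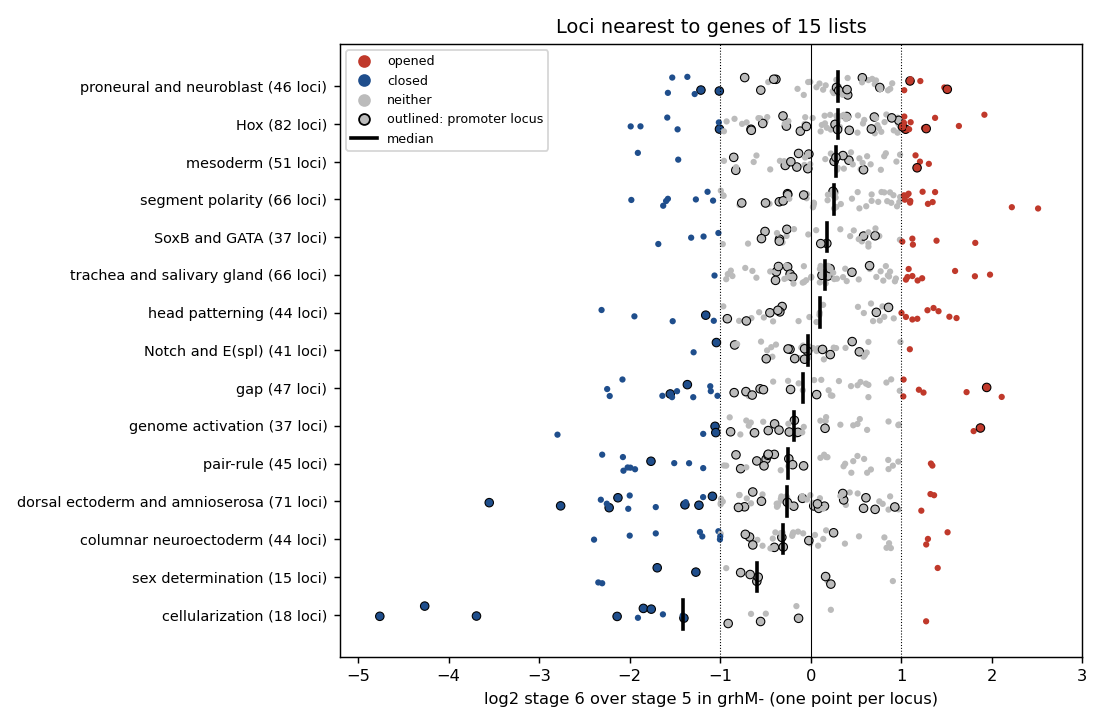
The log2 ratio of stage 6 over stage 5 in grhM- for each locus nearest to a gene of 15 lists, 1 point a locus, ordered by median (black bars). Red points opened, blue closed and grey did neither, outlined points are promoter loci and dotted lines mark the 2-fold limits; cellularization has the lowest median, -1.41, and the Hox and proneural lists the highest, both 0.30.

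The opened loci with the largest differences lay mostly near genes outside these lists. Among promoters, the locus 195 bp from Awh, a LIM-homeodomain gene, opened from 60.4 to 193 (log2 1.68, 1.21 to 2.17) and that of L (Lobe) from 93.9 to 221, both with a Grh string. CG13300 opened from 32.1 to 162, lncRNA:CR45250 from 45 to 247, AcCoAS, an acetyl-CoA synthetase, from 105 to 248, and magu from a bound of 45 to 170. The ratios of these 6 loci had the same sign in the 3 other genotypes. On the deposited fold enrichment 10 of the 16 opened and 5 of the 16 closed loci with the largest differences still changed 2-fold, with log2 ratios of 0.35 at Awh, 0.45 at AcCoAS and 0.15 at CG45544, all below the limit.

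Among distal loci, one 4147 bp from Fer1HCH, the ferritin heavy chain gene, opened from 32.1 to 194 with a Grh string (log2 2.59, 1.99 to 3.26). The locus of aos, which encodes an inhibitor of the EGF receptor, opened from 51.4 to 210 and is 1 of the 11 opened loci with a Zld string. The loci near CG45544 (83.6 to 322), sba (38.6 to 208), sbb (20.6 to 177), bor (72.0 to 225) and LS2 (20.6 to 173) also opened. At sbb and LS2 the rise was over 8-fold, from peaks of 16 fragments before scaling that ranked 30882 and 34854 at stage 5. On the deposited fold enrichment the log2 ratios of sbb and LS2 were 1.19 and 1.68. In grhM+, which listed no stage 5 peak at either, they were at least 1.35 and 1.37. By number of opened loci, a choice made after the values were seen, rdx had 7 of 24, Toll-6 had 6 of 12, sns, which acts in myoblast fusion, 4 of 5, and ara of the Iroquois complex 4 of 7. The share of all loci was 11.0%. The genes with the most opened loci also include CG6244 (6 of 11) and several lncRNAs. As these genes were picked from all genes for their counts, the counts are not a result about them.

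The pair of opened loci with the most fragments of all stood apart. Both lie in Trl, the gene of GAGA factor, at chr3L:14756904-14757081 and chr3L:14754343-14754551, with 415 and 376 fragments at stage 6 and no peak at stage 5 (bounds 113 and 108). They are 178 and 209 bp wide, and one starts exactly at an annotated exon start while the other ends 1 bp past an exon end. Neither was listed in grhM+ at either stage, and each was listed in 1 of 3 grhM-Z- embryos at stage 5 (54 and 39 fragments) and in no embryo at stage 6. The other edge of each lies 249 and 258 bp from the nearest such boundary. Exon edges were looked up at Trl alone, and the cause was not tested. Without them 1984 loci opened.

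Gains and losses sometimes met at 1 gene. Of the 1599 genes nearest to an opened locus and the 1488 nearest to a closed one, 278 were in both, 17.4% and 18.7% of each. Of all 8890 genes with a compared locus 18.0% had an opened and 16.7% a closed one, so these shares are near the background.

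The Zld string CAGGTAG, looked for on either strand up to 50 bp from the strongest summit, was the string that differed most. That summit was the stage 6 one at loci listed there with a ratio above 0 or no stage 5 peak. Elsewhere it was the stage 5 one, so the place searched depended on the direction of change. Among promoter loci the share was 2.60% at log2 ratios of -0.5 to 0 and 0.59% at 0 to 0.5. The part of this choice of summit in the shares was not tested. The string was found at 276 of 1994 closed loci (13.8%, 12.3 to 15.4%), 497 of 14095 that did neither (3.53%) and 11 of 1986 opened loci (0.55%, 0.28 to 0.99%). The same letters in reverse order, which have the same base composition, were found at 1.0%, 0.83% and 0.70%. The share held in promoter loci (16.3% closed, 2.14% neither, 0.53% opened) and in distal loci (13.0%, 5.19%, 0.57%). Among promoter loci that fell by more than 2 on the log2 scale, 15 of 59 (25.4%) carried it.

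Because stronger loci also carried the string more often, it was read by level. Where the higher stage had 40 to 60 fragments, 8.71% of closed loci and 2.33% of those that did neither carried it. At 100 to 200 fragments the shares were 19.9% and 3.69%, and above 200 fragments 25.7% and 9.70%. The closed loci were above the others in each class. Opened loci had 0.18% at 100 to 200 fragments, and 2 of 26 (7.69%) above 200.

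**Figure D4:**
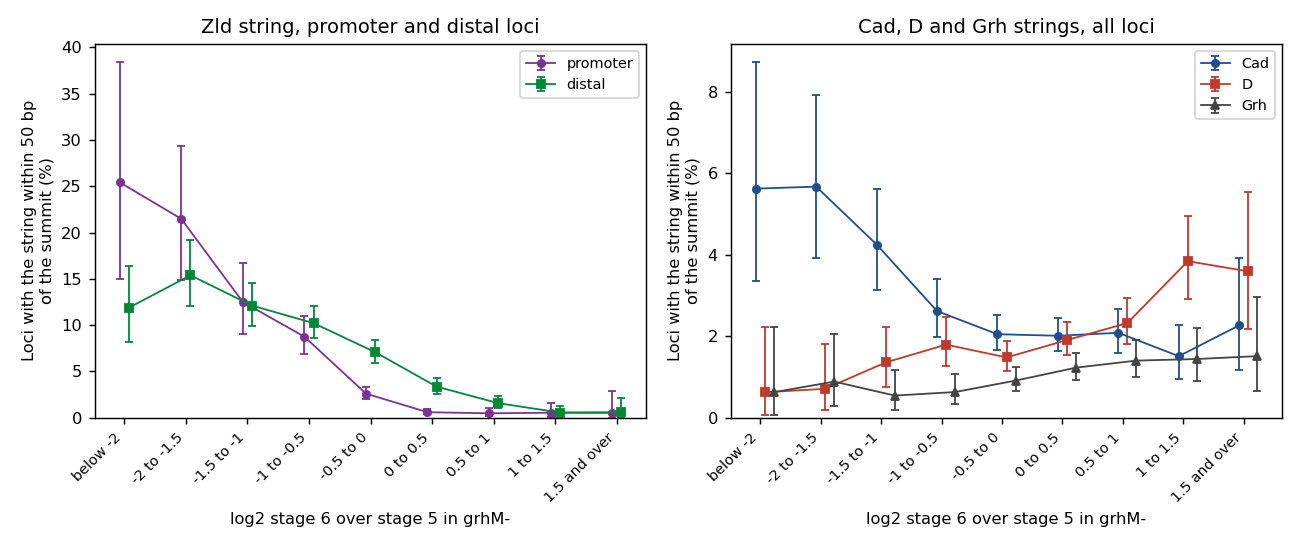
Share of loci with a string within 50 bp of the summit, in percent with exact 95% intervals, by log2 ratio of stage 6 over stage 5 in grhM-: the Zld string at promoter and distal loci on the left, and the Cad, D and Grh strings at all loci on the right. The Zld share falls from 25.4% of promoter loci below -2 to 0.52% at 1.5 and over, Cad falls from 5.62 to 2.27%, D rises from 0.62 to 3.59% and Grh stays under 2%.

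The Cad string TTTTATG was at 4.87% of closed, 2.13% of other and 1.71% of opened loci, while its reversed letters went the other way (2.61%, 5.04% and 3.47%). The D string ACAAAGG was at 3.78% of opened loci (2.98 to 4.71%), 1.84% of those that did neither and 1.05% of closed loci, with 1.81%, 1.58% and 1.05% for its reversed letters. The Opa strings (CGCAGCAGG, CGCAGCATG, CGCAGCGGG and CGCAGCGTG) were at 1.31% of opened, 0.62% of other and 0.50% of closed loci. All 3 are held by a small part of the loci.

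In these embryos, which lack maternal Grh, the Grh strings (AACCGGTT or AACTGGTT) were at 29 opened loci (1.46%, 0.98 to 2.09%), 1.08% of loci that did neither and 13 closed loci (0.65%, 0.35 to 1.11%). The intervals of opened and closed loci overlap, which does not make the shares equal, and the difference was not tested. The reversed letters of the Grh strings were at 0.50%, 0.82% and 1.05%, in the other order. The Forkhead string TGTTTAC was at 6.38% of opened promoter loci, 3.23% of other promoter loci and 2.56% of closed ones, but at 1.62%, 1.91% and 1.68% of distal loci. Its reversed letters ran the same way at promoter loci, with 3.46%, 2.31% and 1.18%. At distal loci the reversed letters fell in that order too, with 4.86%, 2.96% and 1.82%, while the string itself did not. The Dref string ATCGATA was at 12.2% of promoter loci that did neither, 9.04% of those that opened and 2.36% of those that closed. At distal loci the order differed, with 1.61%, 0.89% and 3.03%. The Trl string GAGAGAG was at 7.65% of opened, 8.29% of other and 5.32% of closed loci.

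Closing was more frequent near centromeres. In the 4 Mb next to the centromeres of X, 2 and 3, 377 of 1224 loci closed (30.8%) and 77 opened, against 1561 of 16509 closed (9.46%) in the rest of these arms. The Zld string was at 7.69% of the closed loci there and 15.8% of those in the rest. On chromosome 4, 43 of 324 loci closed (13.3%) and 20 opened (6.17%), against 11.0% of all loci each. On the Y 13 of 18 closed and 0 opened (median log2 -1.39, -1.75 in grhM+). The median of the X was -0.07, against 0.05 to 0.12 on the other large arms, and in grhM+ 0.15. The part of the sex of the pooled embryos in the X and Y values was not tested.

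The log2 ratio also moved with the level of a locus. Over loci listed at both stages its median was -0.36 where the mean level was under 40 fragments, 0.13 from 60 to 100 and -0.32 at 200 and over. In grhM+ the same classes had -0.15, 0.28 and -0.38. Its part in the calls was examined by scaling within classes of like level, chosen after seeing the data, which left 1860 opened and 1550 closed loci.

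The calls of grhM- were then looked up in genotypes that share no embryo with them. In grhM+, 1850 of 1972 opened loci that could be read were higher at stage 6 (93.8%, against 54.0% of all loci) and 652 by at least 2-fold (33.1%, against 10.2%). Of the closed loci 1828 of 1909 were lower (95.8%, against 46.0%) and 1345 by at least 2-fold (70.5%, against 11.4%). The median log2 ratio in grhM+ was 0.76 at opened and -1.40 at closed loci. By list, 0 opened loci rose 2-fold in grhM+ for cellularization, pair-rule, columnar, SoxB and GATA, Notch, proneural, genome activation and sex determination genes. Such a rise was seen at 4 of 7 gap, 5 of 12 segment polarity and 6 of 12 Hox loci. It was also seen at 4 of 9 head, 4 of 9 trachea and salivary gland, 1 of 3 dorsal ectoderm and 1 of 5 mesoderm loci. Pileups of grhM+ were 2.21-fold higher at stage 6 than at stage 5 by the median locus, against 1.29-fold in grhM-, and the part of this depth gap in the shares was not tested.

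In grhM+Z+ embryos (3 at stage 5 and 2 at stage 6) the stage 6 embryos were all above the stage 5 embryos at 1198 of the opened loci (61.5%, against 21.6% of all loci) and all below at 1238 of the closed loci (65.6%, against 21.2%). In grhM-Z- embryos (3 and 3), which lack Grh from both sources, the shares were 52.3% (against 17.6%) and 58.7% (against 16.6%). The direction of grhM- was thus held at most of its called loci in embryos with and without zygotic grh, and the reverse order of embryos was seen at no more than 2.57% of them. At least 2-fold changes in all 3 other genotypes were found at 316 of 1931 opened loci (16.4%, against 2.79% of all loci) and 402 of 1794 closed loci (22.4%, against 2.53%).

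**Figure D5:**
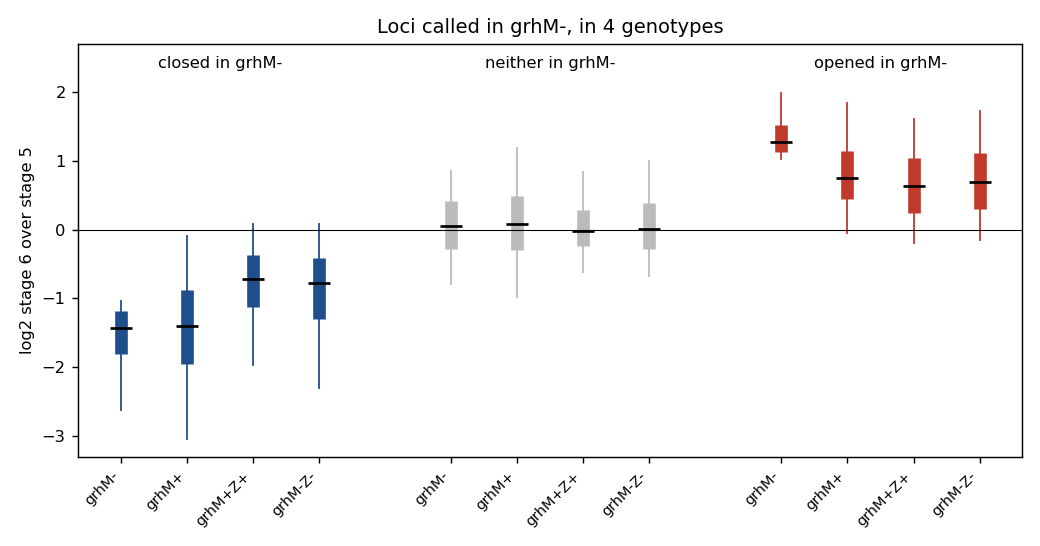
The log2 ratio of stage 6 over stage 5 in grhM-, grhM+, grhM+Z+ and grhM-Z- at loci that closed (blue), did neither (grey) or opened (red) in grhM-; black marks are medians, thick bars run from the 25th to the 75th percentile and thin lines run from the 5th to the 95th percentile. In grhM+ the medians are -1.40, 0.08 and 0.76, on the side of 0 that grhM- called them.

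At slam, bnk and tsg, chosen here for their large log2 ratios, the other genotypes lost their peaks too. At slam, grhM+ had 203 fragments at stage 5 and 17 at stage 6, grhM+Z+ embryos 91 to 114 and no listed peak, and grhM-Z- embryos 106 to 140 and no listed peak. At bnk, grhM+ had 227 and no listed peak, grhM+Z+ embryos 68 to 94 and no listed peak, and grhM-Z- embryos 93 to 179 and 8 to 11. At tsg the stage 5 embryos had 38 to 66 in grhM+Z+ and 37 to 82 in grhM-Z-, and the stage 6 embryos that listed it 10 (1 embryo) and 6 to 20. No listed stage 6 value reached a stage 5 value of the same genotype at these loci.

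Of the 29 opened loci with a Grh string, all of which are counted here after the values were seen, 27 of 29 were higher at stage 6 in grhM+, 24 of 29 in grhM+Z+ and 16 of 28 that could be read in grhM-Z-. Over all opened loci the shares were 93.8%, 87.8% and 89.4%. Whether the lower share in grhM-Z- exceeds the spread was not tested. Among the loci named for their size, at Awh the grhM+Z+ embryos had 11 to 13 fragments at stage 5 and 60 and 73 at stage 6, and grhM-Z- embryos 10 to 16 and 68 to 72. At Fer1HCH, no grhM-Z- embryo listed a peak at stage 5 and all 3 did at stage 6, with 72 to 86 fragments. These 2 loci were higher at stage 6 in embryos labelled as lacking maternal and zygotic grh.

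Opposite changes were few. Of 3881 called loci that could be read in grhM+, 142 had the other direction there with a peak listed at the higher stage. Of these, 5 differed by at least 2-fold. Without that condition, 122 opened loci were lower and 81 closed loci were higher at stage 6 in grhM+.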

How the data were processed

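Paired reads were trimmed by the authors (Trimmomatic 0.36), aligned to dm6 (Bowtie2) and reduced to uniquely placed nuclear fragments of at most 101 bp. Replicates were pooled for peak calling with MACS2 (q 0.05, several summits a peak). The version of MACS2 is not given in the sources used here. The deposited lists hold, for each summit, the −log10 p, the −log10 q and the fold enrichment, a ratio to the background nearby, but no fragment counts per embryo, so the count test of the study could not be made. The total depth is unknown.

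Pileup and background were solved from fold enrichment, read as (pileup + 1)/(background + 1), and −log10 p, read as a Poisson tail, in Python 3.11.15 with numpy 2.4.6, scipy 1.17.1 and pandas 2.3.3. The method was tested on simulated data. Of the summits, 16 at stage 5 and 2 at stage 6 were not solved, and 1 locus was left out for this. Rows with the same coordinates were joined, keeping the highest −log10 q. Scaling, the minimum of 40 fragments, the 2-fold limit and the 1000 bp promoter distance are given with the results. Genes are those of the nearest annotated start site. Genes, promoter or distal place and strings were all read at the strongest summit, taken from stage 6 or stage 5 by the direction of the ratio. The reversed Trl string is the same string on the other strand and is no control.

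Named loci are the 8 with the largest difference in scaled pileup in each of 4 classes, the loci of the gene lists, and those near D, nan, saturn, pb, zen, zen2 and bcd. The members and lists were chosen with earlier results of these data known. Other fold limits, minimum levels, scalings, matching, promoter distances and windows were tried. The grhB37/B37 and grhB37/+ lists were not used.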

Additional observations from a re-analysis of the deposited data

Results flagged for a closer look

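Of the 142 called loci with the other direction in grhM+ and a peak listed at its higher stage, 10 are given here. They are the 5 that differ there by at least 2-fold and those nearest to a gene of the lists. The difference between the genotypes was not tested, since each stage of each genotype is 1 pooled list, and grhM+ values are often read against a bound. Higher at stage 6 in grhM- were H15 (log2 1.10, against -0.04 in grhM+), CG9010 (1.49, against -1.04), vn (1.51, against -0.96) and mRpS9 (1.09, against -1.35). Lower were Ance (-1.09, against 0.94), Syngr (-1.32, against 1.26), Myo81F (-1.30, against 1.19), the intron locus of Antp/CG46458 (-1.59, against 0.15), tll (-1.03, against 0.05) and CG43736 (-1.18, against 1.14). At Ance, whose enzyme is a target of BMP signalling, the locus lies 9 bp from a start site and is 152 bp wide, with 134 and 63 fragments in grhM-, and the log2 ratio was -0.46 in grhM+Z+ and -0.95 in grhM-Z- embryos, so the embryos with maternal grh did not all go one way. At CG43736, the Antp/CG46458 locus and Syngr, grhM-Z- embryos had log2 ratios of 1.20, 0.65 and 0.53, on the side of grhM+. There grhM+Z+ embryos had -0.47, 0.13 and 0.79. At CG9010, vn, H15, mRpS9 and Myo81F, grhM-Z- embryos had 1.33, 1.004, 0.25, 0.13 and -0.63, with the sign of grhM-. At these loci grhM+Z+ embryos had 0.096, -0.04, 0.36, 0.51 and -1.25. The grhM-Z- embryos thus did not all side with grhM+. At H15 and tll the grhM+ values are close to 0.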

How the results depend on the processing

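No paired analysis was possible because each list holds 3 embryos together, and no embryo could be left out for the same reason. The numbers of opened and closed loci were 4280 and 3582 at a 1.5-fold limit and 412 and 758 at 3-fold, and the promoter share of closed loci was 30.2% and 21.9%. With a minimum of 30 fragments that share was 22.6%, and with 60 it was 31.2%, with 1210 closed loci and a promoter share of opened loci of 41.0%. Leaving out loci listed at 1 stage gave 992 opened (promoter share 29.9%) and 1245 closed loci. Matching strongest summits within 150 bp in place of whole peaks gave 3508 closed loci, with promoter shares of 46.9% (opened) and 43.7% (closed). Summits with −log10 q of at least 5 gave 966 and 1149 loci. The MACS2 fold enrichment, which divides by the background around the summit, gave 1237 closed loci and a promoter share of opened loci of 45.4%. It moved 27 of the 32 loci with the largest differences toward 0 (slam -0.48, bnk -1.18). Promoter distances of 500 and 250 bp gave shares of 28.7% and 22.6% (opened) and 17.2% and 12.4% (closed). With the Zld string within 100 bp the shares were 1.46% and 19.5%. Chosen after seeing the data, leaving out chromosomes 4 and Y and the ends next to centromeres gave a promoter share of closed loci of 29.5% and a Zld share of 15.8%, and scaling within classes of level a promoter share of 29.0%. None of these 32 loci changed direction under the scalings or on the fold enrichment. The other named loci, of the gene lists and near the genes of the study, were not read again under these settings. The causes were not tested. A weak peak that loses height can drop out of a list, so such losses are bounded rather than measured.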
